A study of Mus musculus with 3 samples.

Results

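The genes described here are 10 genes of major histocompatibility complex (MHC) class I and its peptide loading, taken by symbol from a deposited table of 21760 genes. The heavy chain genes are H2-K1 and H2-D1, and B2m encodes the light chain, β2-microglobulin. Tap1 and Tap2 encode the peptide transporter and Tapbp encodes tapasin. Psmb8, Psmb9 and Psmb10 encode the catalytic subunits of the immunoproteasome, and Nlrc5 encodes a transactivator of class I genes. All 10 were in the table and each of the 10 reached the minimum of 20 counts in 1 or more libraries. RNA was sequenced from mouse cornea in 3 libraries, 1 per group. The PNU-282987 library came from mice that received eyedrops 3 times a day of PNU-282987, which activates nicotinic acetylcholine receptors made of the α7 subunit. The excision library came from mice whose lacrimal gland had been cut out, a surgical model of dry eye. The sham library came from mice with an incision at the same place that spared the glands. The labels give no strain, sex, age or time of sampling, do not say whether the PNU-282987 mice had also lost the gland, and do not say how many corneas a library held. The question of the study was how the α7 receptor acts in dry eye.

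Class I molecules display peptides from inside the cell to CD8 T cells, and natural killer cells read their presence. The immunoproteasome cuts proteins into peptides, the transporter moves these into the endoplasmic reticulum, and tapasin, with calreticulin and the thiol oxidoreductase encoded by Pdia3, holds the empty heavy chain and β2-microglobulin until a fitting peptide binds. Interferons raise transcription of most of these genes, in part through IRF factors. NLRC5 has no DNA-binding domain of its own and acts through factors bound at a conserved promoter module. The cornea is an immune-privileged tissue in which class I is known to be held at a modest level.

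Counts were divided by library sizes adjusted with TMM factors (trimmed mean of M-values), which gives CPM, a count relative to the size of its library. Total counts were 39616004 in the PNU-282987 library, 37692972 in the excision library and 37703843 in the sham library. With a single library in each group there was no spread between animals to set a difference against, so nothing was tested and libraries, not conditions, are compared. Folds are printed with a 95% interval in brackets that holds counting error alone. The call higher or lower was given at a fold of 2 or more whose interval excluded equal levels. In bulk RNA, a change in the number of cells of a type and a change in RNA per cell cannot be told apart. The corneal label fits the markers: Krt12, the cornea-specific keratin gene, had 1634592 counts in the PNU-282987 library, 1135144 in the excision library and 1541851 in the sham library. The libraries differed in other tissue. The summed level of 7 lens genes was 323 CPM in PNU-282987, 11.7 CPM in excision and 371 CPM in sham. That of 6 conjunctival and gland genes was 5415, 3476 and 2101 CPM in the same order. Krt13 made up most of the latter sum, at 4619, 3091 and 2022 CPM. Muc5ac had 2980, 11 and 1 counts, Gp2 had 3801, 4 and 5, and Muc5b had 676, 0 and 1. These 3 genes reached the count minimum through the PNU-282987 library alone.

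Promoters of some class I genes are shown because NLRC5, IRF and NF-kB are known to act on such genes through a shared layout. Whether they did so in these libraries was not tested. Of the 10 members, 8 were in the RefSeq promoter table of build GRCm38.p6, which holds 300 bases around each gene start. H2-K1 is shown with H2-D1 and with H2-Q4, a non-classical class I gene described further on, and with B2m; each run is the 200 bases before the start. Capitals mark 4 sets of letters, searched on both strands: GGGATTNCC for an NF-kB site, AANNGAAA for an IRF site, TGACG for the X2 box and ATTGG for the Y box, which reads CCAAT on the other strand. None of the matches shown overlap.
H2-K1: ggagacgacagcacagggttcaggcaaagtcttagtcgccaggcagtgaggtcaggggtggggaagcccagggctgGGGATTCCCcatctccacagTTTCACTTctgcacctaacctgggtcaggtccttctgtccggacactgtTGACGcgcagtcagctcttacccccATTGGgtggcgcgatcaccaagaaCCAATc
H2-D1: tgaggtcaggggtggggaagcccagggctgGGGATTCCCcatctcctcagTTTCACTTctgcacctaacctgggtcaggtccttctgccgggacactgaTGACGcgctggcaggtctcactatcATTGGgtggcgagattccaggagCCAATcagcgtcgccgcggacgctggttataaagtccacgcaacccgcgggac
H2-Q4: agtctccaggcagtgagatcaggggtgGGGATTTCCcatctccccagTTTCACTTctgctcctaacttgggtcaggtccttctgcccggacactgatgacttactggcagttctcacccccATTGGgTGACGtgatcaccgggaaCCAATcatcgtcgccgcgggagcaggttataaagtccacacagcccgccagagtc
B2m: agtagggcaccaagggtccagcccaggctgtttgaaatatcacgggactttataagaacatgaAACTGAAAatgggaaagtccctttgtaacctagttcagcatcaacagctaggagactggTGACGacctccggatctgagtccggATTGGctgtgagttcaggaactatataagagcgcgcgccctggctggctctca
In GRCm38.p6 these runs lie at chr17:34000334-34000533 on the minus strand for H2-K1 (the downstream of its listed starts), chr17:35262894-35263093 on the plus strand for H2-D1, chr17:35379417-35379616 on the plus strand for H2-Q4 and chr2:122147487-122147686 on the plus strand for B2m. The class I heavy chain promoters carry the NF-kB letters, the IRF letters and the Y box in the same order. Over the 120 bases that end just after the first ATTGG box, H2-K1 and H2-D1 were identical at 109 positions (90.8%), H2-K1 and H2-Q4 at 99 (82.5%). TGACG follows the IRF letters before that box in H2-K1, H2-D1 and B2m, and lies just after it in H2-Q4.

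Psmb9 and Tap1 start back to back, 225 bases apart on opposite strands of chromosome 17, and the whole stretch between the starts (chr17:34187331-34187555, shown on the Tap1 strand) is shown because a single region serves both members.
Psmb9-Tap1: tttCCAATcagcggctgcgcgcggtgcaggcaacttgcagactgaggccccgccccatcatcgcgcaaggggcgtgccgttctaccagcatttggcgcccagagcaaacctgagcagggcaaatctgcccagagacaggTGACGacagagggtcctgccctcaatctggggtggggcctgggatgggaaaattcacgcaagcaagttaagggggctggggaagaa
It holds a CCAAT box beside the Psmb9 start and a TGACG further along, and no match to the IRF or NF-kB letters. Among all 32851 windows of 300 bases in the table, the NF-kB letters were in 308 (0.938%), the IRF letters in 23.9%, TGACG in 20.8% and ATTGG in 37.4%. TGACG and ATTGG together were in 7.73% of all windows, and in those of 5 of the 8 members (H2-K1, H2-D1, B2m, Tap1 and Psmb9). These 5 are not separate cases. The windows of Tap1 and Psmb9 share 275 of their 300 bases and hold the same matches, and H2-K1 and H2-D1 are closely alike, as given above. The IRF letters were in the windows of 3 of the 8 (H2-K1, H2-D1 and B2m, all printed above). The NF-kB letters were in the windows of 5 genes named H2, which were H2-K1, H2-D1, H2-Q4, H2-Q6 and H2-Q7, and of no other member. GGGATTNCC is a narrow pattern, and other forms of NF-kB site were not searched for. A window without these letters, such as that of B2m, may therefore still hold such a site. The interferon-γ-activated site letters TTCNNNGAA were in the window of Psmb8 and of no other member, against 8.3% of all windows. The window of Psmb10 held none of these letters. Among standard proteasome subunit genes, that of Psmb6 held 1 match to the IRF letters and 2 to TGACG, and that of Psmb5 held 1 TGACG. These matches are a description of letters and not of bound sites.

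All 10 members were higher in the excision library than in the sham library, and 6 of them (H2-K1, B2m, Tap1, Tap2, Psmb9 and Nlrc5) passed 2-fold. Nlrc5 reached the count minimum through the excision library alone, which fixes the direction of its difference in both comparisons with that library, while the other members reached it in all 3 libraries. No member was called lower. In the same comparison 4.01% of 14171 measured genes were called higher and 5.48% lower. The median log2 ratio of excision to sham was 1.16 over the members and -0.0026 over all measured genes. The PNU-282987 library was lower than the excision library for all 10 members, with the same count of 6 past 2-fold and none higher. There 5.62% of 14175 measured genes were called lower and 3.9% higher, and the median log2 ratio of PNU-282987 to excision was -1.11 for the members and 0.008 for all measured genes. Between PNU-282987 and sham no member passed 2-fold in either direction, where 2.58% of 14170 measured genes were called higher and 4.96% lower, and the median log2 ratio was 0.09. The first and second comparisons share the excision library, so a high value in that library enters both.

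**Figure D1:**
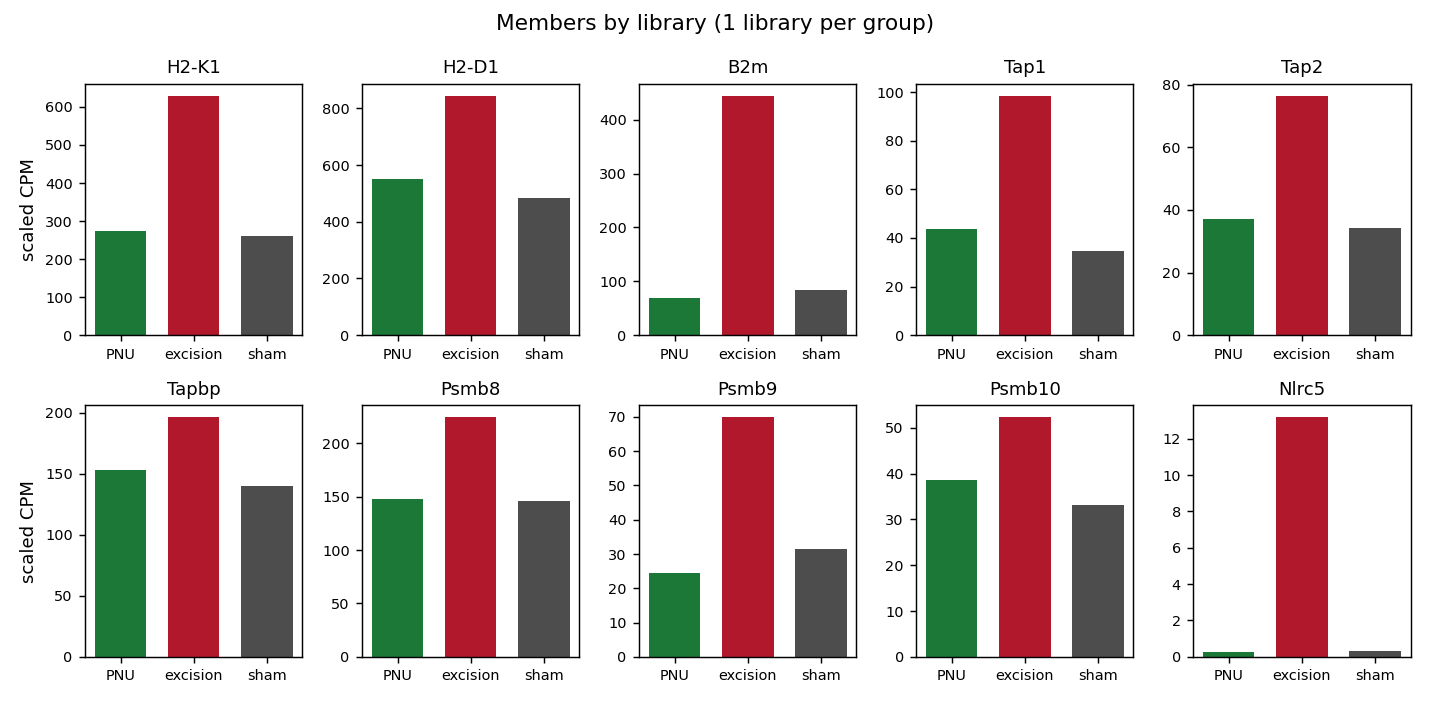
Level of each of the 10 members in scaled CPM (y axis, from 0, its own scale per gene) in the PNU-282987, excision and sham libraries (x axis), 1 bar per library with no error bars because each group had 1 library. The excision bar is the tallest for every gene, and B2m and Nlrc5 show the widest gap, at 445 and 13.2 CPM in excision against 83.6 and 0.333 CPM in sham.

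The light chain gene stood out among the structural members. B2m (gene ID 12010) had 2657 counts (68.4 CPM) in PNU-282987, 16512 counts (445 CPM) in excision and 3264 counts (83.6 CPM) in sham. The excision library was high and the other libraries were close to each other. Excision was 5.32-fold higher than sham (5.13 to 5.53), PNU-282987 was 6.50-fold lower than excision (6.24 to 6.78), and PNU-282987 was 1.22-fold lower than sham (1.16 to 1.29). Of the measured genes, 126 had a larger ratio of excision to sham.

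The heavy chains were higher by less. H2-K1 (gene ID 14972) had 10680 counts (275.0 CPM) in PNU-282987, 23382 (630 CPM) in excision and 10176 (261 CPM) in sham. It was 2.42-fold higher in excision than in sham (2.36 to 2.48) and 2.29-fold lower in PNU-282987 than in excision (2.24 to 2.34). H2-D1 (gene ID 14964) had 21388 counts (551 CPM), 31371 (845 CPM) and 18933 (485 CPM) in the same libraries. Its excision library was again the highest, at 1.74-fold above sham (1.71 to 1.78), and PNU-282987 was 1.53-fold below excision (1.51 to 1.56), so it did not pass 2-fold in either comparison. PNU-282987 and sham differed by 1.06-fold for H2-K1 (1.03 to 1.09) and 1.14-fold for H2-D1 (1.11 to 1.16), both higher in PNU-282987.

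The light and heavy chains thus changed unequally, and this can be measured within each library, where the library size cancels. There were 0.249 B2m reads per H2-K1 read in PNU-282987, 0.706 in excision and 0.321 in sham. The excision value was 2.20-fold above sham (2.11 to 2.30), and PNU-282987 was 2.84-fold below excision (2.71 to 2.98). Against H2-D1 the B2m ratio was 0.124 in PNU-282987, 0.526 in excision and 0.172 in sham, or 3.05-fold higher in excision than in sham (2.93 to 3.18). In both ratios the excision library was the highest and the PNU-282987 library was below sham, by 1.29-fold against H2-K1 (1.22 to 1.37) and 1.39-fold against H2-D1 (1.31 to 1.47). H2-K1 also exceeded H2-D1 in its ratio of excision to sham, by 1.39-fold (1.35 to 1.43).

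Class I genes resemble one another, and the rule by which shared reads were counted is not given in the sources used here. In the GENCODE M21 transcripts, 8.79% of the 50-base windows of the longest coding transcript of H2-K1 were also present in transcripts of another gene, 6.94% of them in H2-D1. The share was 14.3% for H2-D1, with H2-Q1 holding the most (7.4%). B2m, Psmb10 and Nlrc5 shared no window with another gene. The values of H2-K1 and H2-D1 are therefore less certain than those of B2m, and the labels do not give the H2 haplotype of the mice.

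**Figure D2:**
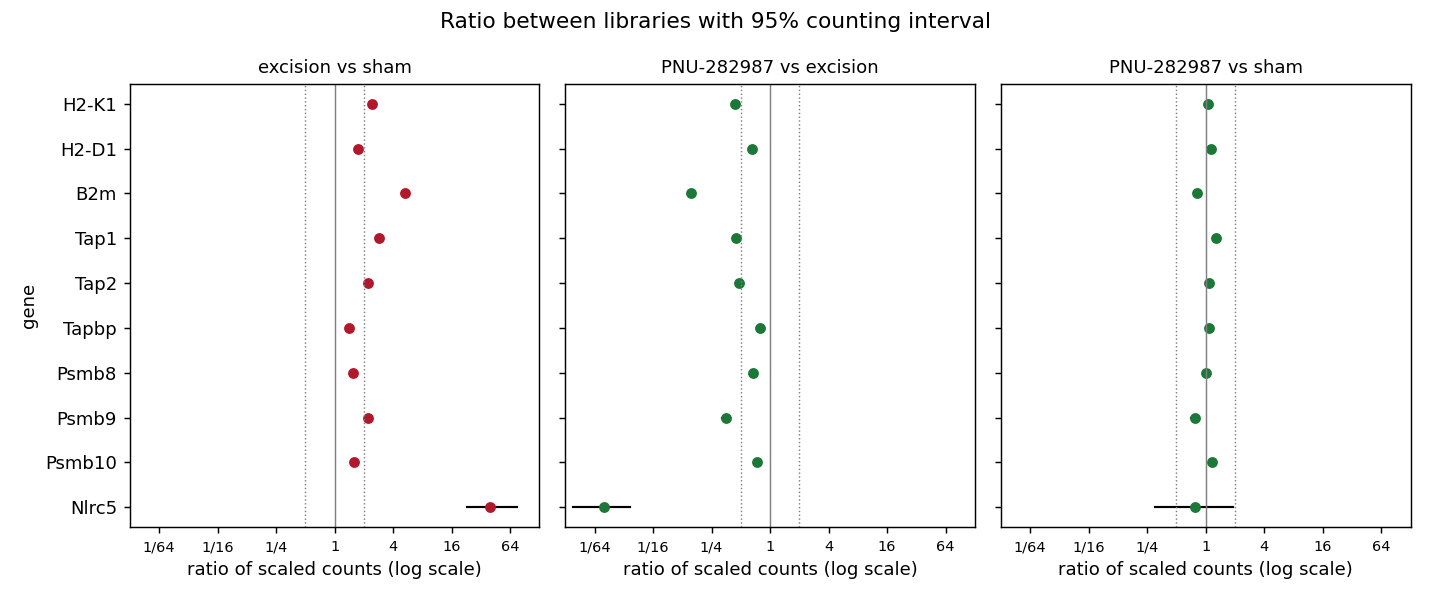
Ratio of scaled counts between libraries for each member (rows), in 3 comparisons (panels), on a log axis. Points are ratios, black lines are 95% counting intervals (hidden behind the point for most genes), the solid line marks equal levels and dotted lines mark 2-fold. Every point lies right of equality for excision against sham and left of it for PNU-282987 against excision, and all points for PNU-282987 against sham lie inside the dotted lines.

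Both transporter genes were past 2-fold in excision against sham and in PNU-282987 against excision. Tap1 (gene ID 21354) had 1698 counts (43.7 CPM) in PNU-282987, 3658 (98.5 CPM) in excision and 1345 (34.4 CPM) in sham. It was 2.86-fold higher in excision than in sham (2.69 to 3.05) and 2.25-fold lower in PNU-282987 than in excision (2.13 to 2.39). Tap2 (gene ID 21355), which encodes the partner subunit, had 1436 counts (37.0 CPM), 2842 (76.6 CPM) and 1341 (34.3 CPM). It was 2.23-fold higher in excision than in sham (2.09 to 2.38) and 2.07-fold lower in PNU-282987 than in excision (1.94 to 2.21). Both genes were highest in the excision library. PNU-282987 was above sham by 1.27-fold for Tap1 (1.18 to 1.37), while for Tap2 the 1.08-fold difference had an interval that held equality (0.999 to 1.16). The ratio of Tap1 to Tap2 reads was 1.18 in PNU-282987, 1.29 in excision and 1.0 in sham, and was 1.28-fold higher in excision than in sham (1.17 to 1.40).

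Tapbp (gene ID 21356), the bridge between transporter and heavy chain, had the smallest difference of the members in both comparisons with the excision library. It had 5958 counts (153 CPM) in PNU-282987, 7286 (196 CPM) in excision and 5485 (140.4 CPM) in sham. Excision was 1.40-fold above sham (1.35 to 1.45), and PNU-282987 was 1.28-fold below excision (1.24 to 1.32). Relative to Tapbp, Tap1 was 2.05-fold higher in excision than in sham (1.91 to 2.20). Tapbp shared 21.0% of its 50-base windows with other genes, most of them with the gene model Gm19412 (19%).

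The immunoproteasome subunits differed among themselves. Psmb9 (gene ID 16912), which takes the place of the standard subunit encoded by Psmb6, had 947 counts (24.4 CPM) in PNU-282987, 2594 (69.9 CPM) in excision and 1224 (31.3 CPM) in sham. It was 2.23-fold higher in excision than in sham (2.08 to 2.39), 2.87-fold lower in PNU-282987 than in excision (2.66 to 3.09), and 1.29-fold lower in PNU-282987 than in sham (1.18 to 1.40). Psmb8 (gene ID 16913), which replaces the Psmb5 product, had 5746 counts (148 CPM), 8323 (224 CPM) and 5713 (146 CPM). Its excision library was 1.53-fold above sham (1.48 to 1.59), while PNU-282987 and sham were 1.01-fold apart, with an interval that held equality (0.975 to 1.05). Psmb10 (gene ID 19171), which replaces the Psmb7 product, had 1503 counts (38.7 CPM), 1940 (52.3 CPM) and 1294 (33.1 CPM), with excision 1.58-fold above sham (1.47 to 1.69) and PNU-282987 1.35-fold below excision (1.26 to 1.45). Excision was the highest library for each subunit, and Psmb9 was the subunit that passed 2-fold. Its ratio of excision to sham exceeded that of Psmb8 by 1.46-fold (1.35 to 1.57) and that of Psmb10 by 1.41-fold (1.28 to 1.56), whereas the ratios of Psmb8 and Psmb10 were 1.03-fold apart with an interval that held equality (0.952 to 1.11).

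The standard subunits that these replace were nearly level between excision and sham, and lower in PNU-282987 than in either. PNU-282987 was below sham by 1.09-fold for Psmb5 (1.05 to 1.14), 1.18-fold for Psmb6 (1.14 to 1.23) and 1.15-fold for Psmb7 (1.11 to 1.19). These lower counts enter the ratios given next for PNU-282987. Psmb5 had 4545 counts in PNU-282987, 4876 in excision and 4995 in sham, Psmb6 had 4684, 5615 and 5573, and Psmb7 had 5338, 5854 and 6173. Within a library there were 0.202 Psmb9 reads per Psmb6 read in PNU-282987, 0.462 in excision and 0.220 in sham, so that the ratio was 2.10-fold higher in excision than in sham (1.95 to 2.27) and 2.29-fold lower in PNU-282987 than in excision (2.10 to 2.49). For Psmb8 over Psmb5 it was 1.26, 1.71 and 1.14, 1.49-fold higher in excision than in sham (1.42 to 1.57). For Psmb10 over Psmb7 it was 0.282, 0.331 and 0.210, 1.58-fold higher in excision than in sham (1.46 to 1.71), and here PNU-282987 stayed 1.34-fold above sham (1.24 to 1.46). The inducible share was thus highest in the excision library for each pair. Transcripts of Psmb9 and Tap1 in GENCODE M21 share sequence. Of the 50-base windows of Psmb9, 12.5% are in Tap1 transcripts, and 5.61% of those of Tap1 are in Psmb9 transcripts, on either strand. Part of their reads may not be told apart, since the strand setting of the counting is not given in the sources used here.

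**Figure D3:**
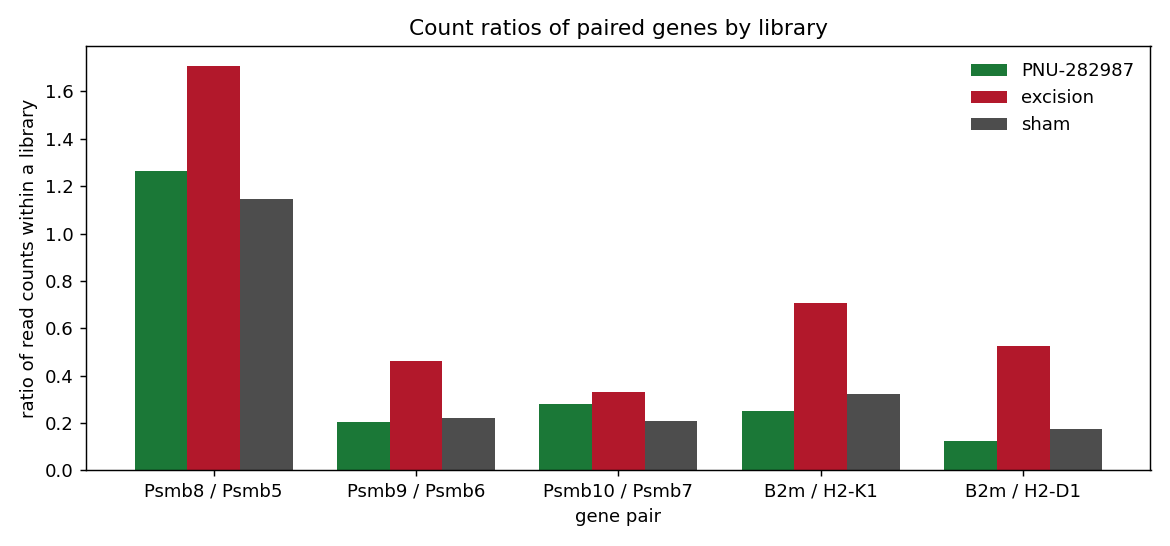
Ratio of the read counts of 2 genes within a library (y axis, from 0) for 3 immunoproteasome subunits over the standard subunit each replaces, and for B2m over each heavy chain (x axis), in the PNU-282987, excision and sham libraries (bars, 1 library each). The excision bar is the tallest of each set, for example 0.462 Psmb9 reads per Psmb6 read against 0.202 in PNU-282987 and 0.220 in sham.

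Nlrc5 (gene ID 434341) was near the lower limit of measurement outside the excision library. It had 10 counts (0.258 CPM) in PNU-282987, 489 (13.2 CPM) in excision and 13 (0.333 CPM) in sham, so it passed the count minimum through the excision library alone. Excision was 39.6-fold above sham (22.9 to 74.9) and PNU-282987 was 51.2-fold below excision (27.6 to 107). PNU-282987 and sham were not distinguishable at this depth (1.29-fold lower, 0.524 to 3.29). Of the measured genes, 7 had a larger ratio of excision to sham. Relative to B2m reads, Nlrc5 reads were 7.44-fold higher in excision than in sham (4.28 to 12.9). Ciita, the corresponding transactivator of MHC class II genes, had 12 counts in PNU-282987, 25 in excision and 6 in sham, so it too reached the minimum through the excision library alone, and Nlrc5 relative to Ciita was 9.03-fold higher in excision than in sham (3.17 to 25.7).

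The order of the members by level changed between libraries. Per kilobase of the longest coding transcript, the level in CPM per kilobase in PNU-282987 ran from H2-D1 (262) and H2-K1 (170) through Psmb8 (90.9) and B2m (79.6) to Tapbp (52.9), Psmb10 (29.5), Psmb9 (18.0), Tap1 (14.8), Tap2 (10.7) and Nlrc5 (0.0340). In excision B2m led with 517 CPM per kilobase, ahead of H2-D1 (402), H2-K1 (389) and Psmb8 (138), and Psmb9 (51.7) was above Psmb10 (39.9). In sham the level of B2m (97.2 CPM per kilobase) lay below H2-D1 (231) and H2-K1 (161). Psmb10 (25.3, interval 23.9 to 26.7) and Psmb9 (23.2, interval 21.9 to 24.5) were the neighbours in sham whose counting intervals overlapped, and no neighbours' intervals overlapped in PNU-282987 or excision. These levels rest on 1 transcript length per gene (860 bases for B2m and 7578 for Nlrc5), taken from GENCODE M21.

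Some genes next to the members in the pathway passed 2-fold between libraries and others did not. Most measured genes were not called (12826 of 14171 in excision against sham), so a short list with no call does not stand out. Of 24 class I-like and non-classical genes listed, 19 were in the table and 12 were measured. Of these, 7 were higher in excision than in sham and none was lower (median log2 ratio 1.04). Of all measured genes, 4.01% were called higher and 5.48% lower there. In PNU-282987, 5 were lower than in excision and none higher (median -0.93, with H2-Q7 entered at a floor of 3 counts), against 5.62% and 3.9% of all measured genes. Against sham, none of the 12 was called in PNU-282987, where 2.58% of all measured genes were called higher and 4.96% lower. H2-T24 and H2-Q7 passed the count minimum through the excision library alone, which fixes the direction of their difference. H2-Q4 had 524 counts in PNU-282987, 2830 in excision and 664 in sham, and was 4.48-fold higher in excision than in sham (4.12 to 4.89), more than H2-K1 by 1.86-fold (1.70 to 2.03). H2-Q7 had 0, 66 and 2 counts, and the 95% counting limit puts PNU-282987 at least 18.2-fold lower than excision. H2-T24 had 9, 109 and 3 counts, and H2-Q2 had 19, 68 and 22 (3.25-fold higher in excision than in sham, 1.99 to 5.53). H2-T23, which encodes Qa-1, a ligand of the natural killer receptor NKG2A, had 3707, 6644 and 3347 counts, and was 2.09-fold higher in excision than in sham (2.0 to 2.18). H2-T22 (2313, 4708 and 2460 counts; 2.01-fold, 1.92 to 2.12) was at the 2-fold limit. H2-Q4, H2-T23 and H2-T22 share 39.2%, 29.8% and 44.7% of their 50-base windows with other genes, so the division of reads among class I-like genes is uncertain.

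The 5 measured genes of that list outside the H2 family were within 2-fold in each comparison and did not share a direction. Mr1, which presents vitamin B metabolites, had 4212 counts in PNU-282987, 3658 in excision and 4177 in sham. Fcgrt, the neonatal Fc receptor gene, had 215, 159 and 244 counts, and its excision library was 1.46-fold below sham (1.19 to 1.79). Hfe, the hemochromatosis gene, had 104, 137 and 120 counts, and its interval of excision against sham held equality (0.933 to 1.55). Procr, the endothelial protein C receptor gene, had 459, 367 and 386 counts and Azgp1 had 34, 28 and 33, and for both the interval of excision against sham held equality.

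Chaperones, peptide editors and related genes of the endoplasmic reticulum, not all of them part of the loading complex, were within 2-fold between libraries. None of the 7 measured (Calr, Canx, Pdia3, Tapbpl, Hspa5, Uggt1 and Ganab) passed 2-fold in any comparison. Their median log2 ratio of excision to sham was -0.08, and 4.01% of all measured genes were called higher and 5.48% lower there. The shares were 3.9% and 5.62% in PNU-282987 against excision, and 2.58% and 4.96% in PNU-282987 against sham. Calr (calreticulin) had 19974 counts in PNU-282987, 13952 in excision and 14262 in sham, and Canx (calnexin) had 6454, 5010 and 5833. Pdia3 had 15388, 9859 and 12572 counts, with PNU-282987 1.49-fold above excision (1.46 to 1.53). These 3 genes were highest in the PNU-282987 library. Tapbpl, the gene of the tapasin-related peptide editor, had 1024, 1113 and 860 counts, and its excision library was 1.36-fold above sham (1.25 to 1.49), close to the 1.40-fold of Tapbp.

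Peptide trimming and the rest of the proteasome were likewise within 2-fold between excision and sham, where 4.01% of all measured genes were called higher and 5.48% lower. Of 8 measured trimming genes, none was called in that comparison, and Ide alone was called in the others. Of all measured genes, 3.9% were called higher and 5.62% lower in PNU-282987 against excision. In PNU-282987 against sham the shares were 2.58% and 4.96%. Erap1, the aminopeptidase that trims class I peptides in the endoplasmic reticulum, had 811 counts in PNU-282987, 877 in excision and 808 in sham (1.14-fold above sham in excision, 1.04 to 1.26). Ide, the insulin-degrading enzyme gene, had 8281, 3053 and 3182 counts and was 2.59-fold higher in PNU-282987 than in excision (2.49 to 2.70). None of 14 standard 20S core genes passed 2-fold in any comparison, and their log2 ratios of excision to sham lay between -0.20 and 0.26. None of 18 genes of the 19S cap did either, nor any of 10 activator and assembly genes. Among the latter, Psme1 had 6954, 7383 and 7054 counts and Psme2 had 7243, 9148 and 8214. These encode the PA28 activator, which is interferon-inducible in many cells, and their excision libraries were 1.10-fold (1.07 to 1.14) and 1.17-fold (1.14 to 1.21) above sham.

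**Figure D4:**
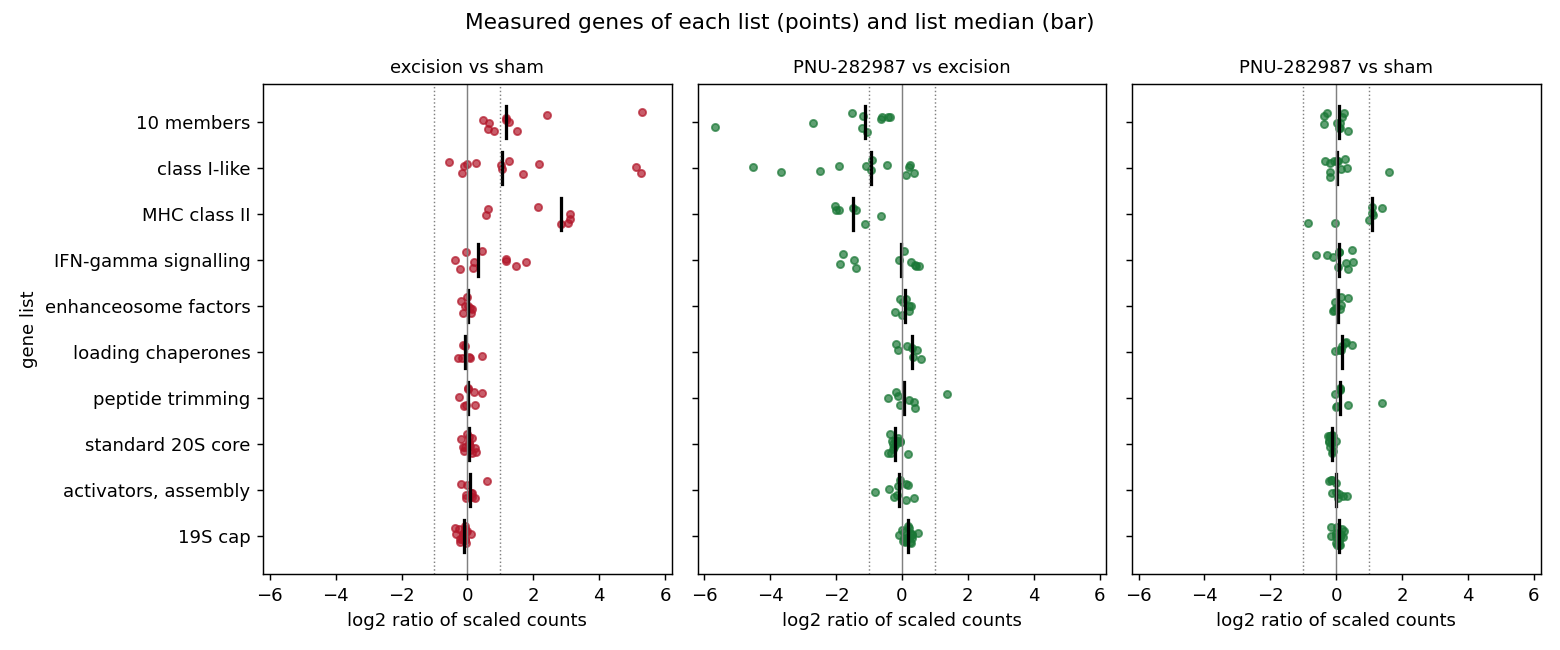
Log2 ratio of scaled counts (x axis) for the measured genes of 10 gene lists (rows) in 3 comparisons (panels); points are genes, black bars are list medians, and dotted lines mark 2-fold. The members and the MHC class II genes lie to the right for excision against sham (medians 1.16 and 2.85). Of the class I-like genes (median 1.04), 9 lie above 0 and 3 below. The chaperone, trimming and proteasome lists have medians near 0 in that comparison.

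Upstream regulators were split. Stat2, a component of the interferon-activated ISGF3 complex, had 980 counts in PNU-282987, 3448 in excision and 1064 in sham, and was 3.41-fold higher in excision than in sham (3.18 to 3.66). Irf9, the DNA-binding component of that complex, had 1742, 4559 and 2129 counts (2.25-fold, 2.14 to 2.37). Socs1, a feedback inhibitor, had 43, 141 and 66 counts (2.25-fold, 1.67 to 3.06). Each was highest in the excision library, and in PNU-282987 they were lower than in excision by 3.68-fold for Stat2 (3.43 to 3.96), 2.74-fold for Irf9 (2.59 to 2.90) and 3.43-fold for Socs1 (2.42 to 4.95). Irf1, a direct activator of Tap1, Psmb9 and heavy chain genes, was abundant and nearly level at 14434, 14606 and 13565 counts. Ifng itself had 0, 1 and 0 counts. The promoter factors that NLRC5 acts through did not differ by 2-fold in any of 8 cases, and Rfx5 had 823, 814 and 857 counts. Of all measured genes, 4.01% were called higher and 5.48% lower in excision against sham. The shares were 3.9% and 5.62% in PNU-282987 against excision, and 2.58% and 4.96% in PNU-282987 against sham.

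MHC class II genes were also highest in the excision library. Cd74, the class II invariant chain gene, had 591 counts in PNU-282987, 2297 in excision and 282 in sham, and PNU-282987 was 2.11-fold above sham (1.83 to 2.44). Of 7 measured class II genes, 4 were called higher in PNU-282987 than in sham and none lower, where 2.58% of all measured genes were called higher and 4.96% lower. The difference between this count and that of the class I members was not tested. Relative to Cd74 reads, H2-K1 reads were 2.0-fold lower in PNU-282987 than in sham (1.73 to 2.31) and 3.55-fold lower in excision than in sham (3.13 to 4.02). The class II genes other than Cd74 that were called higher in PNU-282987 than in sham were H2-Aa (301 and 116 counts), H2-Ab1 (204 and 94) and H2-Eb1 (253 and 119). The genes of the peptide exchange factor H2-M did not share this: H2-DMa had 66 counts in PNU-282987 and 120 in sham, 1.81-fold lower in PNU-282987 (1.33 to 2.48), and H2-DMb1 had 118 and 121.

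Immune cell transcripts were also highest in the excision library. The summed level of 6 leukocyte markers was 7.06 CPM in PNU-282987, 20.7 CPM in excision and 9.09 CPM in sham. Of the 6, 4 were called higher in excision than in sham, against 4.01% of all measured genes. One of these 4, Ptprc (17, 36 and 6 counts), reached the count minimum through the excision library alone, which fixes its direction. For 6 macrophage markers the summed level was 26.9, 40.9 and 18.8 CPM, with 4 of 6 higher in excision than in sham, against the same 4.01%. Here Mrc1 (3, 33 and 6 counts) was measured through the excision library alone. The CD8 T and natural killer markers in the table, 10 of 12 listed, summed to 0.824, 6.22 and 0.256 CPM. Of these 4 were measured, each through the excision library alone, and Cd8a had 1, 37 and 0 counts. The 10 class I members summed to 1340.0 CPM in PNU-282987, 2651 CPM in excision and 1249 CPM in sham. Corneal epithelial markers did not pass 2-fold in any of the 3 comparisons, for 6 of 6 genes. Krt14 came near it, at 1.93-fold above sham in excision (1.88 to 1.98) and 1.997-fold above sham in PNU-282987 (1.95 to 2.05). All 5 keratocyte markers were below sham in both other libraries, and 2 of them were called lower in excision. Endothelial and lens markers were lowest in the excision library, with 5 of 5 and 7 of 7 lower than in sham, against 5.48% of all measured genes. The part that these cells and tissues had in the class I differences was not tested.

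The genes whose differences most resembled those of the members were sought among 12693 other measured genes, by the Euclidean distance between their log2 ratios of excision to sham and of PNU-282987 to excision. Nearest to the median of the members (1.16 and -1.11) were Aff3, Trabd2b, Misp, Ptger1 and Adamtsl4, at distances of 0.018 to 0.092. Trabd2b (12, 24 and 11 counts) reached the count minimum through the excision library alone, which fixes the direction of its difference. Adamtsl4 had 1659 counts in PNU-282987, 3256 in excision and 1596 in sham. Nearest to Nlrc5 were Tgtp1, Gvin2, Ifi27l2a, Apol9b and Slfn4, at distances of 0.844 to 1.43. Tgtp1 (7, 238 and 4 counts) and Gvin2 (4, 116 and 6) reached the count minimum through the excision library alone, as Nlrc5 did. With 3 libraries, likeness rests on 2 ratios that share the excision library.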

How the data were processed

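Mouse corneal RNA was measured in 3 libraries, 1 per group. The authors deposited raw read counts for each gene as whole numbers, and these were used unchanged. HTSeq and R 3.2.0 are named in the submitters' processing notes. No aligner, build, annotation or strand setting is stated in the sources used here. Columns were matched to samples by title and samples to groups by the treatment label.

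Library sizes were scaled with TMM factors (edgeR 4.0.16, R 4.3.3), at 0.980 for PNU-282987, 0.985 for excision and 1.04 for sham. A gene was measured if any library held 20 or more counts. No prior was added to ratios. For a count of 0 the ratio was taken at a floor of 3 counts and the 95% counting limit is printed as the bound, and there is no ratio if the other count was also 3 or fewer. The 95% intervals were exact conditional binomial (Clopper-Pearson) intervals, Woolf intervals for ratios between genes and exact Poisson intervals for levels, and hold only counting error, as reads lacking molecular identifiers can be copies of 1 molecule. The ratio code was tested on simulated data. With 1 library per group no p-value was computed.

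The members and gene lists were chosen with earlier results of these data known. Named were all members, further pathway genes fixed by name, up to 4 called genes of each pathway list with the largest ratios, and the 5 nearest genes in each search for like patterns. H2-T22, H2-T23, Mr1, Fcgrt, Hfe, Procr, Azgp1, H2-DMa, H2-DMb1, Ifng, Hspa5, Uggt1, Ganab, Krt12, Krt13, Krt14, Muc5ac, Gp2, Muc5b, Cd8a, Ptprc, Mrc1 and the genes under other observations were named after their values were seen. The cell marker lists are otherwise given as sums and counts. Not every gene the rule names is reported here. Promoter sequences are from RefSeq (GRCm38.p6), transcripts from GENCODE M21. Python 3.11.15, NumPy 2.4.6, pandas 2.3.3, SciPy 1.17.1 and matplotlib 3.10.9 were used. Alternatives were scaling by total counts, DESeq2 1.42.0 size factors, other count minimums, other fold thresholds and an added prior.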

Additional observations from a re-analysis of the deposited data

How the results depend on the processing

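No paired analysis was possible because each group had a single library, and for the same reason no library could be left out. The 30 log2 ratios of the members were recomputed with total counts, DESeq2 size factors and a prior of 0.5 counts. Of these 90 values 88 kept their sign, 80 lay inside the counting interval of the reported value, and the largest shifts were 0.080, 0.007 and 0.069. The sign changed with total counts for PNU-282987 against sham in H2-K1 (-0.0016) and Psmb8 (-0.063), neither of which was called. Member counts of 6 higher (excision against sham) and 6 lower (PNU-282987 against excision) each became 2 at a 3-fold threshold. The other settings left those counts within 1.5 times.

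Over all genes, excision against sham gave 568 higher and 777 lower genes. Higher genes were 948 with no filter, 237 with at least 100 counts, 1166 at 1.5-fold and 288 at 3-fold. Lower genes were 313 with at least 100 counts, 1281 at 1.5-fold and 422 at 3-fold. PNU-282987 against excision gave 553 higher and 797 lower. Higher genes were 224 with at least 100 counts, 1081 at 1.5-fold and 283 at 3-fold, and lower genes 1240 with no filter, 287, 1582 and 389. PNU-282987 against sham gave 366 higher and 703 lower. Higher genes were 649 with no filter, 127 with at least 100 counts, 712 at 1.5-fold and 161 at 3-fold, and lower genes 1080, 199, 1376 and 293. Stricter and looser thresholds change these counts by construction. Depth limits Nlrc5 outside the excision library, and a count of 0 allows up to 3 counts.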

Other observations

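A further class I-like gene of the Q region, H2-Q9, was outside the lists and was looked at after its values were seen. It had 0 counts in PNU-282987, 27 in excision and 0 in sham, and the 95% counting limit puts excision at least 7.19-fold higher than sham. H2-Q9 passed the count minimum through the excision library alone, which fixes the direction of its difference. H2-Q6, below the count minimum, had 0, 11 and 0 counts. Together with H2-Q7 (0, 66 and 2 counts), these closely related genes were detected almost only in the excision library. They were picked for these values, and the division of reads among them is uncertain. The pseudogene H2-T-ps (19, 36 and 43 counts) and H2-Q1 (9, 10 and 10 counts) did not share this pattern. H2-Ke6, a neighbour of the class I genes that has no part in presentation, had 1285, 1444 and 1449 counts.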
